A study of Mus musculus with 4 samples.

Results

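The genes described here are 39 ligands, receptors, Smads and close regulators of the transforming growth factor beta (TGF-beta) and bone morphogenetic protein (BMP) pathways. They were the rows of the deposited count table whose gene name equals a name on a list, so all 39 were found among 32285 rows. The list holds 13 ligand-class genes, 11 receptors and coreceptors, 8 Smads, 3 Id genes and 4 inhibitors. The values come from RNA sequencing of GS cells, spermatogonia kept in culture, derived from testes of 10-day-old mice. There were 4 libraries, 2 from wild-type C57BL/6 mice (B6) and 2 from wild-type mice of strain 129. No allele, transgene or treatment is given for either strain, and the titles of the B6 libraries also carry the tag F0, which the labels do not explain. The labels leave unsaid whether the 2 libraries per strain are different cultures or mice. The p-values below therefore reflect variation among 4 libraries that may be technical in part or whole.

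TGF-beta family ligands are secreted dimers that bring type I and type II receptor kinases together on the cell surface. Receptors for TGF-beta and activin phosphorylate Smad2 and Smad3, receptors for BMPs phosphorylate Smad1, Smad5 and Smad9, and either set enters the nucleus with Smad4. In the testis BMP4 and activin act on spermatogonia, and BMP signals are known for their part in spermatogonial differentiation. GS cells are commonly grown on a layer of feeder fibroblasts, and the labels do not say whether these cultures were.

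Depth and cell markers were as follows. Library totals were 20375086 to 25374801 counts. Germ cell genes were abundant in every library, with Ddx4 at 275 to 517 CPM, which are counts scaled to a common library size. All 16 listed markers were detected well enough to be tested. They summed to 4200 and 4592 CPM in B6 and to 3244 and 4181 CPM in 129. Both 129 libraries were lower for 8 of the 16 and higher for 4, and the median log2 fold change of 129 over B6 was -0.42. The 25 fibroblast markers, all tested, summed to 8179 and 5620 CPM in B6 and to 10816.5 and 4309 CPM in 129, so replicate 1 was the higher library in either strain. In 129, 23 of these 25 were higher in replicate 1 than in replicate 2, with a median log2 ratio of 1.37, against -0.33 for the germ cell markers and -0.01 for all genes tested. Sums over markers of other cells differed too. The 12 Sertoli cell markers summed to 162 and 209.7 CPM in B6 and 467 and 342 CPM in 129. Over all libraries Trf had 15057 counts, Dhh 80 and Fshr 1. The 9 endothelial markers summed to 24.9 and 23.9 CPM against 204 and 87.0 CPM. Much of the 129 sums was Eng, a coreceptor given below. Both 129 libraries were higher for 7 of 10 tested Sertoli cell and 3 of 6 tested endothelial markers, and the rest overlapped between strains. Leydig cell markers summed to under 10 CPM in each library. The 6 peritubular muscle markers summed to 117, 50.3, 213 and 97.9 CPM and the 9 macrophage markers to 30.6, 27.9, 50.5 and 19.9 CPM, in the order B6 replicate 1, B6 replicate 2, 129 replicate 1 and 129 replicate 2. EdgeR called higher in 129 3 of the 25 fibroblast, 2 of 10 tested Sertoli cell, 2 of 6 tested endothelial, 1 of 6 peritubular and 1 of 16 germ cell markers, where 1.84% of all genes were called higher. It called 1 germ cell marker lower. DESeq2 called 10 fibroblast markers higher and 5 lower, and 2 germ cell markers higher and 3 lower. It called 2 Sertoli cell, 2 endothelial, 2 peritubular and 1 macrophage marker higher, and 1 peritubular marker lower. Of all genes DESeq2 called 15.3%. The fibroblast list went both ways, with 10 markers higher and 8 lower in both 129 libraries. The part of these cells in the results below was not tested, and in bulk RNA fewer cells of a type and less RNA per cell cannot be told apart.

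Of 5 genes that passed the test between strains, 4 were ligands, 1 was a Smad and none was a receptor. Tgfb1, Bmp7 and Bmp4 were higher in 129, by 4.08-fold, 3.10-fold and 13.6-fold. Gdf10 was 14.3-fold and Smad3 2.48-fold lower in 129. The 3 Id genes had fitted folds of 5.66, 12.5 and 3.98 in favour of 129 without passing the test, and they were mostly high in 1 of the 129 libraries. Of the 36 members with enough counts to be tested, edgeR's quasi-likelihood test with Benjamini-Hochberg adjustment over all genes called 5 at an adjusted p under 0.05 (13.9%), where 2.86% of all 16005 genes tested were called. In the direction of 129, 3 of 36 were called higher, against 1.84% of all genes, and 2 of 36 lower, against 1.02%. The members were chosen with earlier results of these data known, so a higher share among them is not a test of the pathway. Both libraries of one strain lay above both of the other for 23 of the 36 (63.9%), close to the 60.1% found over all genes. Of these, 12 were higher in 129, against 31.0% of all genes, and 11 lower, against 29.2%. An unadjusted edgeR p under 0.05 was found for 15 members, and for 28.1% of all genes. The median log2 fold change was 0.27 over the members and 0.02 over all genes tested. DESeq2 called 7 members higher and 4 lower, where it called 15.3% of all genes.

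**Figure D1:**
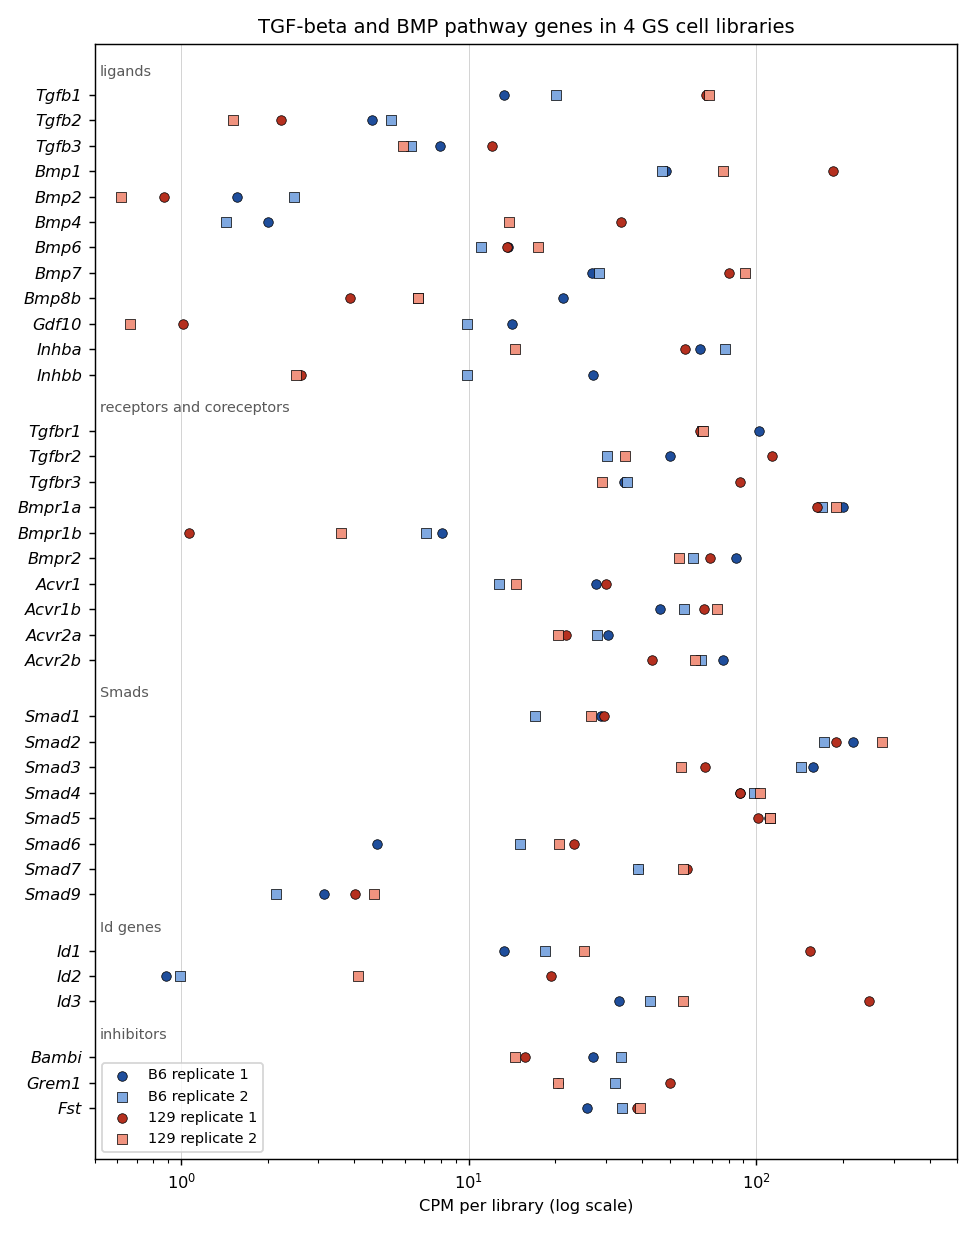
CPM of the 36 tested genes in each of the 4 libraries on a log axis, grouped by role, with circles for replicate 1 and squares for replicate 2. The 129 libraries stand clear of B6 for Tgfb1, Bmp7, Bmp4, Gdf10 and Smad3, while 129 replicate 1 alone is far to the right for Id1 (154 CPM) and Id3 (247 CPM).

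Tgfb1, which encodes the founding ligand of the family, was at 13.3 and 20.03 CPM in the B6 libraries and at 66.9 and 68.6 CPM in those of 129. The 129 libraries were nearly level and lay more than 3 times above the higher B6 library. The log2 fold change was 2.03 (SE 0.29, edgeR adjusted p = 0.033). The gene lies on the plus strand at chr7:25687002-25705077 in GRCm38 and shares no exon with another annotated gene.

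The other isoforms did not pass. Tgfb2, the second isoform, was at 4.62 and 5.34 CPM in B6 and at 2.22 and 1.52 CPM in 129, apart between strains in the opposite direction (log2 fold change -1.41, SE 0.47, edgeR adjusted p = 0.12). Tgfb3 overlapped between strains, at 7.95 and 6.28 CPM against 12.1 and 5.92 CPM. Measured per kilobase of exon, Tgfb1 made up 45.6% and 58.8% of the summed level of the 3 isoforms in the B6 libraries and 77.1% and 87.1% in 129. With the longest annotated transcript as the length these shares were 61.4%, 72.9%, 86.7% and 92.9%, so the level depended on the length used and the order of the strains did not.

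Bmp7, a BMP ligand found in many epithelia, was at 26.8 and 28.4 CPM in B6 and 80.4 and 91.0 CPM in 129. Here the libraries of each strain were close and the strains were far apart (log2 fold change 1.63, SE 0.22, edgeR adjusted p = 0.031). Per kilobase of exon it had the highest mean level of the 13 ligand-class genes, at 14.1 CPM per kilobase over the 4 libraries, and Bmp1 came next at 10.04. In B6 alone Inhba was higher, with a mean of 11.1 CPM per kilobase against 6.87 for Bmp7. By the longest transcript Bmp1 and Tgfb1 stood above it over the 4 libraries. Bmp7 lies on the minus strand at chr2:172868012-172940321.

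Bmp4, the BMP ligand best known for acting on primordial germ cells and spermatogonia, was nearly silent in B6, at 2.01 and 1.43 CPM. In 129 it reached 33.7 and 13.7 CPM, so both 129 libraries were above B6 but lay 2.45-fold apart from each other. The log2 fold change was 3.76 (SE 0.60, edgeR adjusted p = 0.037), and limma-voom did not pass it (adjusted p = 0.059). Its value without 129 replicate 1 was 2.98 (edgeR adjusted p = 0.16). The gene lies on the minus strand at chr14:46383520-46390669, and 89 bases of its exons overlap Gm15217 on the other strand, which had 6 counts in all libraries together.

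Gdf10, also known as Bmp3b, went the other way. It stood at 14.2 and 9.84 CPM in B6 and at 1.01 and 0.663 CPM in 129, the latter from 21 and 14 counts. No 129 library came near the B6 level, and the log2 fold change was -3.84 (SE 0.54, edgeR adjusted p = 0.033). The gene occupies chr14:33923587-33937983 on the plus strand and shares no exon with another annotated gene.

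Without B6 replicate 1, B6 replicate 2 or 129 replicate 1 none of these 4 ligands passed in edgeR, where the lone library of a strain is taken to vary like those of the other strain. Tgfb1 then had log2 fold changes of 1.75, 2.31 and 2.05 (adjusted p = 0.15, 0.092 and 0.16), and Bmp7 1.58, 1.63 and 1.72 (adjusted p = 0.16, 0.097 and 0.14). For Bmp4 the values without the B6 libraries were 4.04 and 3.52 (adjusted p = 0.19 and 0.13), and for Gdf10 the 3 values were -3.55, -4.11 and -4.17 (adjusted p = 0.15, 0.093 and 0.16). Without 129 replicate 2 Tgfb1, Bmp7 and Bmp4 passed and Gdf10 did not (-3.56, adjusted p = 0.052). Over the 4 fits the log2 fold change ran from 1.75 to 2.31 for Tgfb1, from 1.54 to 1.72 for Bmp7, from 2.98 to 4.27 for Bmp4 and from -4.17 to -3.55 for Gdf10.

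Activin subunit genes were lower in 129 without passing. Inhbb, the beta B subunit of activin and inhibin, was at 27.1 and 9.84 CPM in B6 and 2.61 and 2.51 CPM in 129, with the strains apart and the B6 libraries 2.75-fold apart (log2 fold change -2.86, SE 0.61, edgeR adjusted p = 0.054). DESeq2 passed it (adjusted p = 2.7e-05), as did edgeR with library totals (adjusted p = 0.040). Without B6 replicate 1 the value was -1.95 and without B6 replicate 2 it was -3.45. Inhba, the beta A subunit, was at 63.5 and 77.9 CPM in B6 and 56.5 and 14.5 CPM in 129. Both 129 libraries were below B6, replicate 1 narrowly and replicate 2 far, and the difference did not pass (-0.99, SE 0.57, edgeR adjusted p = 0.31). It was -2.28 without 129 replicate 1 and -0.32 without 129 replicate 2. Its ratio of 129 replicate 1 to replicate 2 was 3.89, the highest of the 12 tested ligands on the member list.

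Bmp1 carries a BMP name but encodes a metalloprotease that processes procollagens and the BMP antagonist chordin. It was at 48.4 and 46.8 CPM in B6 and at 185 and 76.3 CPM in 129, so the strains did not overlap and 129 replicate 1 stood far above the other 3 libraries. The log2 fold change of 1.45 (SE 0.40) had an edgeR adjusted p of 0.084, and DESeq2 passed it (adjusted p = 0.0096). It was 0.69 without 129 replicate 1 (adjusted p = 0.39) and 1.96 without 129 replicate 2 (adjusted p = 0.020).

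The remaining ligands were low or level. Bmp2, a close relative of Bmp4, was at 1.57 and 2.47 CPM in B6 and 0.869 and 0.616 CPM in 129, lower in both 129 libraries (-1.42, SE 0.56, edgeR adjusted p = 0.16). Bmp8b, which is needed for germ cell development in mice, was at 21.2 and 6.68 CPM in B6 and at 3.86 and 6.63 CPM in 129. B6 replicate 2 and 129 replicate 2 were almost equal, so the apparent difference (-1.42, SE 0.63, edgeR adjusted p = 0.20) rested on B6 replicate 1 and was -0.35 without it. Reads of Bmp8b may be shared with its near copy Bmp8a, and its exons overlap Ppie on the other strand by 133 bases. Bmp6 overlapped between strains, at 11.0 to 17.3 CPM. Nodal, the ligand of early embryo patterning, was too low to be tested, with 7, 59, 3 and 1 counts in the order of libraries given above.

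**Figure D2:**
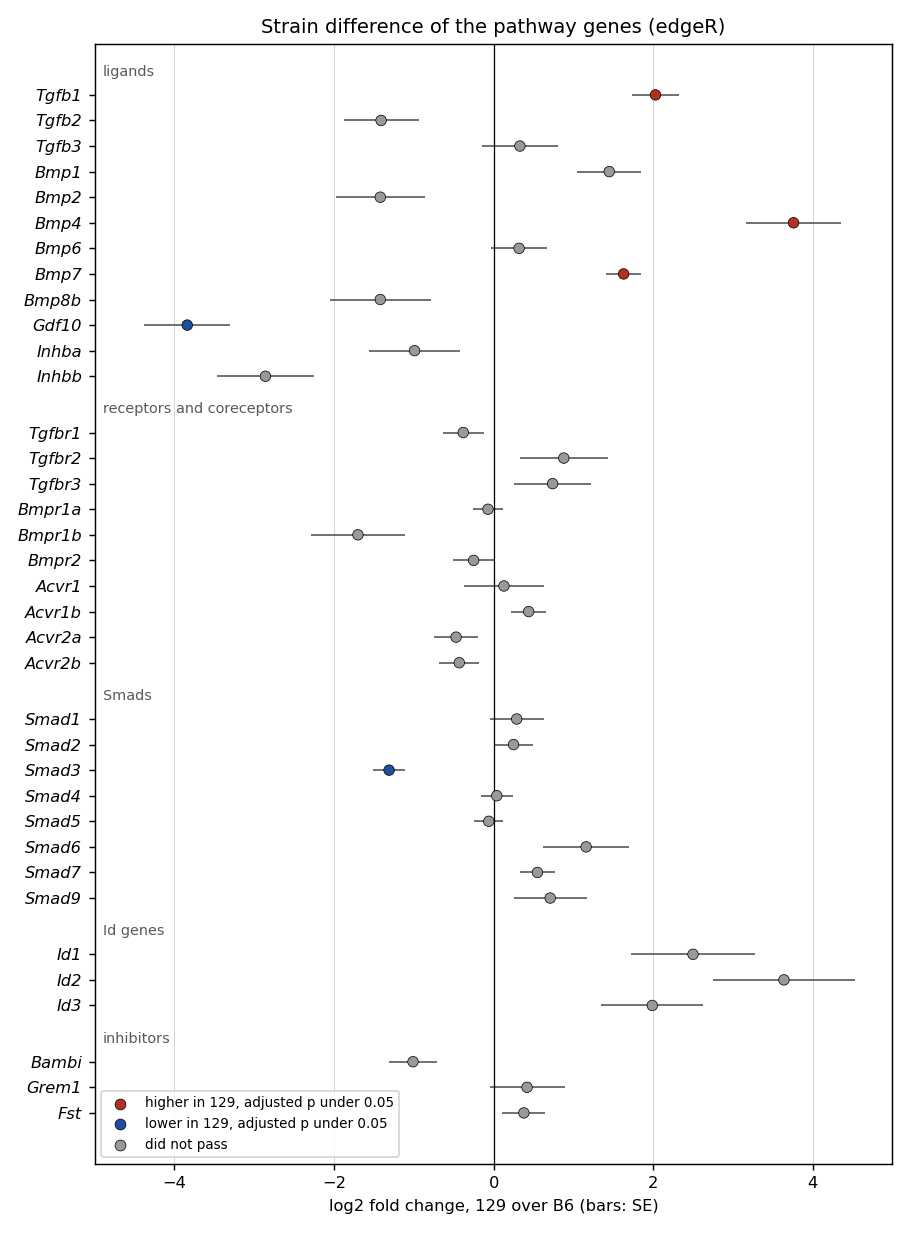
Log2 fold change of 129 over B6 for the 36 tested genes by role, with bars of 1 SE and colour for the edgeR call. Among the receptors Bmpr1b (-1.70) lies farthest from 0, and the coloured points are Tgfb1, Bmp4 and Bmp7 to the right and Gdf10 and Smad3 to the left.

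None of the member receptors passed the test. Of the 10 tested, edgeR called 0, DESeq2 0 and limma-voom 0, and 1 had an unadjusted edgeR p under 0.05. Bmpr1a, a type I BMP receptor, was the most abundant receptor per length, at 31.5 and 26.7 CPM per kilobase of exon in B6 and 25.6 and 29.8 in 129. It provided 45.3% to 50.3% of the summed level of Tgfbr1, Bmpr1a, Bmpr1b, Acvr1 and Acvr1b in each library, a sum that leaves out the type I receptors Acvrl1 and Acvr1c. Its log2 fold change was -0.07, with a 95% interval of -0.52 to 0.38.

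Among type I receptors of TGF-beta and activin, Tgfbr1 was at 102 and 64.6 CPM in B6 and 63.4 and 65.2 CPM in 129, with B6 replicate 1 alone high (-0.38, 95% interval -1.0 to 0.25). Acvr1b, a type I activin receptor, was at 46.1 and 56.0 CPM in B6 and 65.6 and 72.8 CPM in 129, slightly higher in both 129 libraries (0.44, 95% interval -0.09 to 0.97). It lies on chromosome 15, where the median log2 fold change of the 427 genes averaging 10 CPM or more was 0.46. Such medians ran from -0.16 (chromosome 12) to 0.12 (chromosome 18) for the other chromosomes that hold tested members. The part of a chromosome-wide difference in the value of Acvr1b was not tested. Acvr1, a type I receptor used by BMPs, was higher in replicate 1 of either strain, at 27.7 and 12.8 CPM in B6 and 29.97 and 14.5 CPM in 129.

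Bmpr1b, the other type I BMP receptor, was at 8.07 and 7.12 CPM in B6 and 1.06 and 3.60 CPM in 129. Among the 10 tested member receptors it alone had an interval clear of 0 (log2 fold change -1.70, 95% interval -3.09 to -0.31), and its edgeR adjusted p was 0.12. The value was -1.07 without 129 replicate 1 and -2.83 without 129 replicate 2. In 129 it was lower in replicate 1, with a ratio of 0.295 to replicate 2, from 22 and 76 counts. Per kilobase of exon it had 0.178 to 1.35 CPM, far below Bmpr1a in every library.

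Type II receptors, which bind ligand and activate the type I partner, gave no call either. Acvr2b was at 76.8 and 64.3 CPM in B6 and 43.2 and 61.3 CPM in 129, and Acvr2a at 30.5 and 27.9 against 21.8 and 20.5 CPM. Both were slightly lower in 129 in each library, with log2 fold changes of -0.43 and -0.47 and 95% intervals that held 0 (-1.04 to 0.17 and -1.13 to 0.19). Bmpr2 overlapped, at 53.6 to 85.1 CPM (-0.25, 95% interval -0.86 to 0.37).

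Tgfbr2, the type II receptor of TGF-beta, and Tgfbr3, the coreceptor betaglycan, had 129 libraries that lay far apart. Tgfbr2 was at 50.1 and 30.3 CPM in B6 and 114 and 35.0 CPM in 129. Tgfbr3 was at 34.6 and 35.4 CPM in B6 and 87.6 and 29.1 CPM in 129. Replicate 2 of 129 lay between the B6 libraries for Tgfbr2 and below both for Tgfbr3, and 129 replicate 1 stood about 3 times above it in either gene. Their log2 fold changes, 0.88 (SE 0.55) and 0.74 (SE 0.48), turned to -0.20 and -0.26 without 129 replicate 1. The Nodal coreceptor gene Tdgf1, also called Cripto, was not tested, with 7, 0, 5 and 3 counts.

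Smad3 was the 1 Smad of 8 that passed the test. It was at 157 and 143 CPM in B6 and at 66.3 and 54.8 CPM in 129, with the libraries of each strain close together and no overlap. The log2 fold change was -1.31 (SE 0.20, edgeR adjusted p = 0.035), and leaving out each library gave -1.45 to -1.18. None of these 4 fits passed: the adjusted p was 0.17 without B6 replicate 1, 0.099 without B6 replicate 2, 0.16 without 129 replicate 1 and 0.068 without 129 replicate 2. Smad3 is on the minus strand at chr9:63646767-63757994 and shares no exon with another gene.

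Smad2, which acts beside Smad3 downstream of TGF-beta and activin, was at 216 and 172 CPM in B6 and 188 and 273 CPM in 129, overlapping between strains (0.25, 95% interval -0.32 to 0.82). Per kilobase of exon, Smad3 was therefore 53.6% and 56.8% of the pair in the B6 libraries and 35.8% and 24.1% in 129. The shares were within 0.1 of these values with the longest transcript as the length. With 2 libraries a strain the smallest two-sided p of an exact permutation test is 0.333, so the shares are given without a test.

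Smad4, the common partner, and Smad5, a BMP Smad, overlapped between strains with narrow intervals. Smad4 was at 87.8 and 97.9 CPM in B6 and 88.0 and 103 CPM in 129, with a 95% interval of the log2 fold change from -0.43 to 0.51. Smad5 was at 111 CPM in both B6 libraries and at 101 and 112 CPM in 129, with an interval from -0.50 to 0.38. Smad1 was at 28.9 and 17.0 CPM in B6 and 29.6 and 26.6 CPM in 129, and Smad9 at 3.13 and 2.13 against 4.01 and 4.69 CPM. Among the 3 BMP Smads, Smad5 made up 71.4% to 82.8% of the level per kilobase of exon. With the longest transcript as the length the share was 64.2% to 77.5%.

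The inhibitory Smads, which are induced by the pathway and block its receptors, were higher in both 129 libraries without passing. Smad6 was at 4.78 and 15.0 CPM in B6 and 23.3 and 20.6 CPM in 129, and most of its spread lay between the B6 libraries (1.16, SE 0.54, edgeR adjusted p = 0.21). Its value was 0.54 without B6 replicate 1 and 2.15 without B6 replicate 2. Smad7 was at 38.7 CPM in both B6 libraries and at 57.3 and 55.6 CPM in 129, a small and even difference (0.55, SE 0.22, edgeR adjusted p = 0.16).

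**Figure D3:**
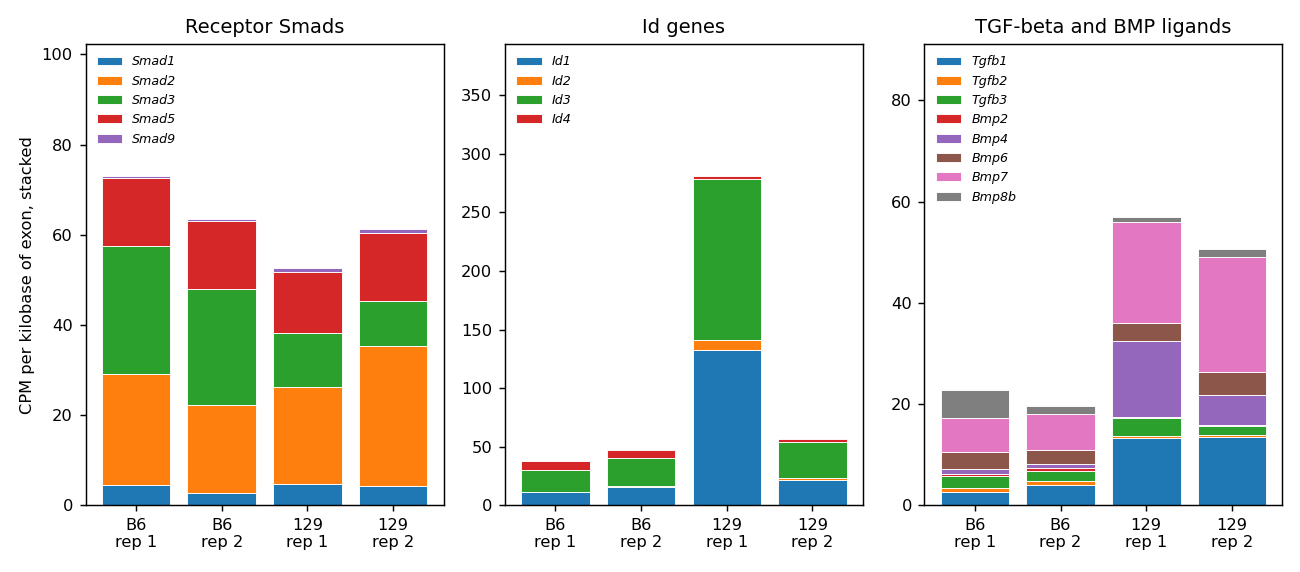
Stacked levels per kilobase of exon in each library for the receptor Smads, for Id1 to Id4 and for the TGF-beta and BMP ligands, on linear axes that start at 0 and differ between panels. The Smad3 block is smaller in both 129 libraries, the Id total is high in 129 replicate 1 only, and the ligand total is larger in both 129 libraries.

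Id1, Id2 and Id3 encode inhibitors of basic helix-loop-helix transcription factors and are classic BMP target genes. Id1 was at 13.3 and 18.5 CPM in B6 and at 154 and 25.2 CPM in 129. Id3 was at 33.2 and 42.7 CPM in B6 and at 247 and 55.3 CPM in 129. In both genes 129 replicate 2 lay just above B6 and replicate 1 far above, at ratios of 6.11 and 4.46 to replicate 2. Id2 was at 0.883 and 0.989 CPM in B6 and at 19.3 and 4.12 CPM in 129, so for it the lower 129 library too was over 4 times the B6 level.

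None of the 3 passed over all genes in edgeR. Their log2 fold changes were 2.50 (SE 0.78, adjusted p = 0.11) for Id1, 3.64 (SE 0.89, adjusted p = 0.066) for Id2 and 1.99 (SE 0.64, adjusted p = 0.11) for Id3. DESeq2 passed all 3 (adjusted p = 0.0030, 8.2e-05 and 0.0082), limma-voom passed 0, and all 3 had an unadjusted edgeR p under 0.05. Without 129 replicate 1 the values were 0.68, 2.14 and 0.55 (edgeR adjusted p = 0.54, 0.28 and 0.53). Without 129 replicate 2 they were 3.28, 4.36 and 2.70 (adjusted p = 0.012, 0.020 and 0.012).

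Id4, a related gene expressed in spermatogonial stem cells, is on the list of other pathway targets and was named after its values were seen. It was at 27.9 and 26.2 CPM in B6 and 10.6 and 10.4 CPM in 129, lower in both 129 libraries and level within each strain (-1.37, SE 0.31, edgeR adjusted p = 0.059). Its share of the summed level of Id1 to Id4 per kilobase of exon was 19.3% and 14.5% in B6 and 0.977% and 4.75% in 129.

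**Figure D4:**
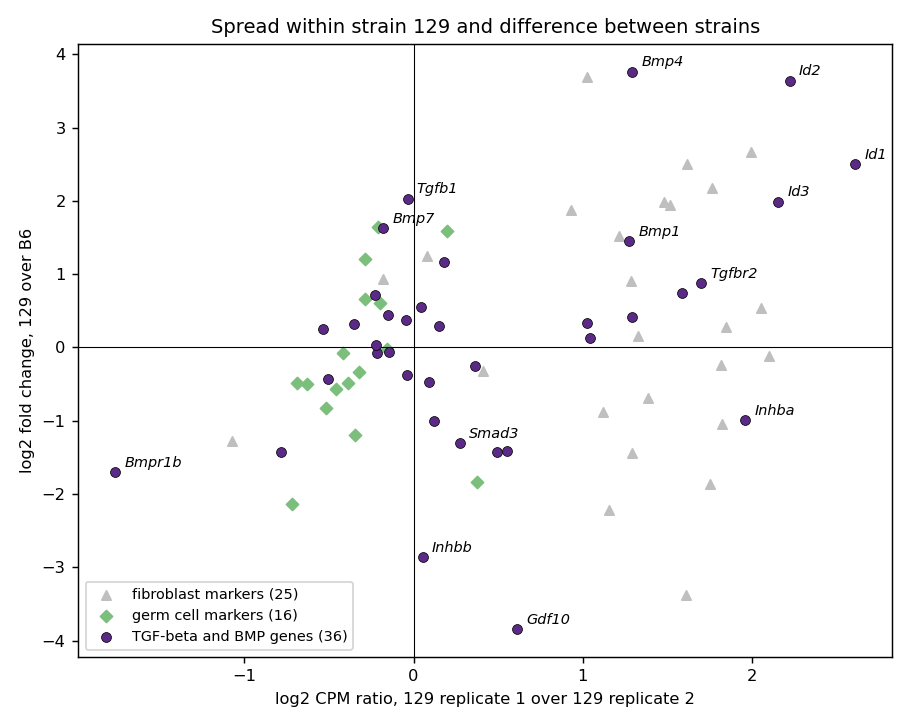
Log2 fold change between strains against the log2 CPM ratio of the 2 libraries of strain 129, for the 36 tested genes, 25 fibroblast markers and 16 germ cell markers. Tgfb1, Bmp7, Smad3 and Inhbb lie near 0 on the horizontal axis, while Id1, Id2, Id3, Bmp1, Bmp4, Inhba and Tgfbr2 lie to the right with 23 of the 25 fibroblast markers.

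The split between the 129 libraries ran through a subset of the pathway. In 129, 11 of the 36 tested members were more than 2-fold higher in replicate 1 than in replicate 2, namely Tgfb3, Bmp1, Bmp4, Inhba, Tgfbr2, Tgfbr3, Acvr1, Id1, Id2, Id3 and Grem1. Of all genes tested 11.6% were, and of the 25 fibroblast markers 20 were. The part of fibroblast RNA in the values of these 11 genes was not tested. For Tgfb1, Bmp7, Gdf10 and Smad3 the ratios of replicate 1 to replicate 2 in 129 were 0.976, 0.884, 1.53 and 1.21. That of Gdf10 rests on 21 and 14 counts, and its ratio in B6 was 1.44. In B6, 20 of the 25 fibroblast markers were higher in replicate 1. The part of fibroblast RNA in the differences of these genes was not tested either.

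Secreted and membrane inhibitors gave no call in edgeR. Bambi, a receptor decoy without a kinase domain, was at 27.0 and 33.9 CPM in B6 and 15.7 and 14.5 CPM in 129, lower in both 129 libraries (-1.01, SE 0.30, edgeR adjusted p = 0.095). DESeq2 passed it (adjusted p = 0.014), the 1 inhibitor with an unadjusted edgeR p under 0.05, while limma-voom passed 0. Fst, which encodes the activin-binding protein follistatin and had the highest mean level per length of the 4 over all libraries, close to Grem1 (7.49 and 7.43 CPM per kilobase), was at 25.7 and 34.03 CPM in B6 and 38.3 and 39.5 CPM in 129 (0.38, 95% interval -0.25 to 1.02). Grem1, the BMP antagonist gremlin, overlapped, at 20.5 and 32.3 CPM against 50.05 and 20.5 CPM. Nog, which encodes noggin, had 12, 7, 9 and 5 counts in the same order of libraries and was not tested.

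Promoter windows of the members were searched for 3 Smad elements, because several genes of the pathway are known Smad targets. RefSeq windows in GRCm38.p6, from 250 bases before to 50 after a start, were at hand for 27 of the 39 genes, and 32 windows were searched on both strands. The motifs were GGCGCC, a GC-rich element bound by BMP Smads, GTCTAGAC, the palindromic Smad element, and CAGACA, a short Smad element whose reverse complement is TGTCTG. The first 2 are their own reverse complements. The GC-rich element occurred in 10 of the 32 windows, of 9 genes, and in 11.9% of all 32851 promoter windows. Overlapping windows of Smad5 held the same match. The short element occurred in windows of 4 genes and in 21% of all windows. The palindrome occurred in 1 window, that of Smad6, and in 0.213% of all. Shown are the single palindrome match (Smad6), the match of an Id gene (Id2) and that of a gene called between strains (Gdf10), 5′ to 3′ on the gene's strand with the motif in capitals:
Smad6: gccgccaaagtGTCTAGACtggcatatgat
Id2: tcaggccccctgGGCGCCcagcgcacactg
Gdf10: ctcgccagtcccGGCGCCgctccgtgggct
The stretch of Smad6 is chr9:64022045-64022074 on the minus strand, with the motif across the start itself. That of Id2 is chr12:25096306-25096335 on the minus strand, and that of Gdf10 is chr14:33923591-33923620 on the plus strand, just after the start. The windows of Tgfb1, Bmp4, Smad3 and Id3 held none of the 3 motifs. Bmp7 and Id1 were among the genes without a window and were not searched. A match is a run of letters and not a measured site.

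Other genes of the pathway were taken from 6 lists of 100 genes in all, of which 80 were tested. EdgeR called 4 higher and 2 lower in 129, and 74 did not pass. That is 7.5% called, against 2.86% of all genes, and the median log2 fold change was 0.22. These lists too were chosen with earlier results of these data known. DESeq2 called 15 higher and 5 lower, where it called 15.3% of all genes.

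**Figure D5:**
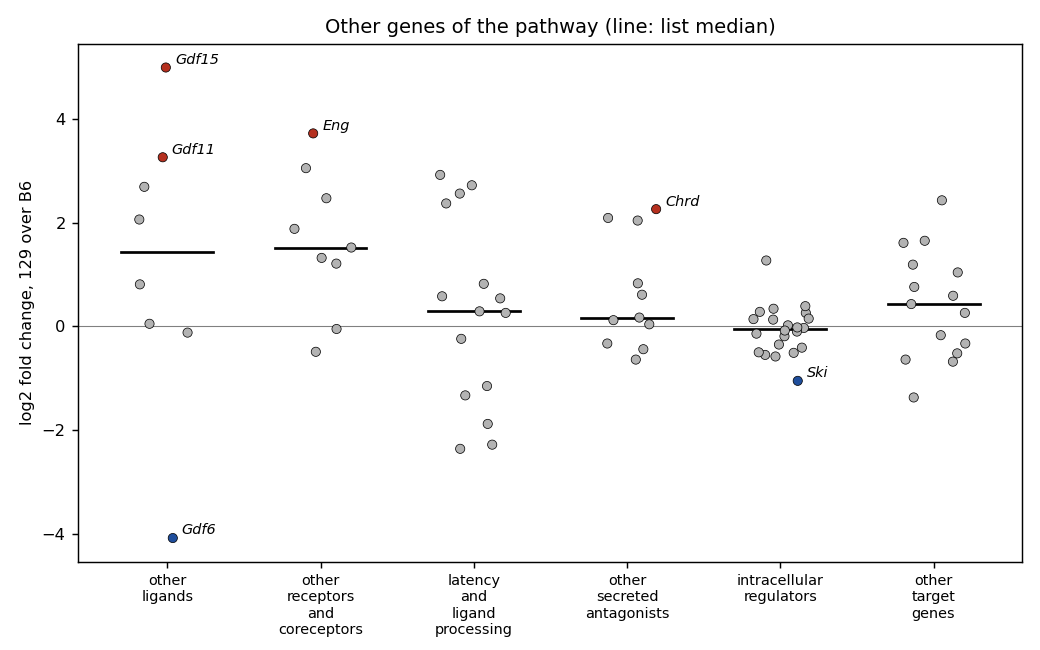
Log2 fold change of 129 over B6 for 80 other genes of the pathway in 6 lists, with a line at each list's median and the 6 genes called by edgeR named. Gdf11, Gdf15, Eng and Chrd lie above 0, and Gdf6 and Ski below.

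Of 8 tested other ligands, 2 rose and 1 fell. Gdf11, a ligand that signals through activin receptors and Smad2 and Smad3, rose from 11.3 and 7.32 CPM in B6 to 99.5 and 79.8 CPM in 129, with the 129 libraries close together (3.26, SE 0.31, edgeR adjusted p = 0.029). Gdf15, a stress-induced member of the family, rose from 1.28 and 0.643 CPM to 51.3 and 12.0 CPM (4.99, SE 0.88, edgeR adjusted p = 0.047), mostly in replicate 1. Gdf6, a BMP ligand, had 58 counts in B6 and 3 in 129, a ratio of B6 to 129 of 17.9 with a 95% counting interval of 5.83 to 89.4 (edgeR adjusted p = 0.047). The 13 others of this list were too low to be tested.

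Chrd and Eng were the called genes outside the ligands that rose. Chrd, which encodes the BMP antagonist chordin, rose from 16.4 and 13.6 CPM in B6 to 78.1 and 65.7 CPM in 129 (2.26, SE 0.26, edgeR adjusted p = 0.029), 1 call among 11 tested antagonists. Eng, a TGF-beta coreceptor that is also on the endothelial marker list, rose from 4.74 and 4.996 CPM to 95.8 and 32.6 CPM (3.72, SE 0.56, edgeR adjusted p = 0.035), 1 call among 9 tested receptors. Its exons overlap those of Fpgs on the other strand, and those of Chrd overlap Thpo likewise. Of the 9 tested other receptors and coreceptors, 7 were higher and 1 lower in both 129 libraries, against 31.0% and 29.2% of all genes. Their median log2 fold change was 1.52. DESeq2 called 4 higher and 0 lower, and 6 had an unadjusted edgeR p under 0.05, against 15.3% and 28.1% of all genes.

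Ski, a repressor that binds Smad2, Smad3 and Smad4, fell from 440 and 536 CPM in B6 to 229 and 243 CPM in 129 (-1.05, SE 0.18, edgeR adjusted p = 0.044). It was the 1 call among 22 intracellular regulators, whose median was -0.06. None of these 6 calls passed without B6 replicate 1, B6 replicate 2 or 129 replicate 1. Limma-voom passed Gdf11 and Chrd and did not pass Gdf15, Gdf6, Eng or Ski (adjusted p = 0.076, 0.069, 0.070 and 0.051). In edgeR without 129 replicate 2 the 4 rises passed, Ski had an adjusted p of 0.066 and Gdf6 of 0.16. For Gdf15 the log2 fold change was 3.60 without 129 replicate 1 (edgeR adjusted p = 0.14), and for Eng it was 2.75 (adjusted p = 0.13).

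Latency genes, which store and release TGF-beta outside the cell, had 0 calls among 15 in edgeR and 0 in limma-voom, with 6 in DESeq2 and 7 at an unadjusted edgeR p under 0.05. Thbs1, an activator of latent TGF-beta and the most abundant of the list, was at 543 and 481 CPM in B6 and 1235 and 253 CPM in 129. Its 129 libraries lay on either side of B6, and the log2 fold change of 0.54 (SE 0.64) was -1.01 without 129 replicate 1. The other target genes had 0 calls among 15 in edgeR and 0 in limma-voom, with 3 in DESeq2 and 5 at an unadjusted edgeR p under 0.05. Over all genes tested, DESeq2 called 15.3%, and 28.1% had an unadjusted edgeR p under 0.05.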

How the data were processed

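The deposited table holds unnormalized read counts by gene for the 4 libraries. Tools named in the submitters' processing notes are HISAT2 2.2.1 and HTSeq 0.13.5 with build mm10, besides bcl2fastq 2.20, cutadapt 3.4 and DESeq2 1.30.1. Sources used here give no strand setting or annotation release, so overlapping genes can share or lose counts, and reads of 129 aligned to a C57BL/6 reference can be lost at variants. The kit was for stranded mRNA, and reads were single and 76 bp long, per the series' design text.

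Counts were fitted in edgeR 4.0.16 (R 4.3.3) with filterByExpr, TMM factors (0.982 to 1.04), strain as the only term and the robust quasi-likelihood test. Benjamini-Hochberg adjustment ran over the 16005 tested genes, at 0.05. Dividing the size of a log2 fold change by the square root of F gave its SE, and 95% intervals use the fit's degrees of freedom. CPM use library totals scaled by TMM. Levels per length use the union of exons in GENCODE M21 (GRCm38). Counting intervals cover counting error only. Ratios between libraries over lists add 0.5 counts. Same-strain libraries differed beyond sampling noise (chi-square per gene 43.1 in B6 and 54.6 in 129). Members and lists were chosen with earlier results of these data known. Values in every library were given for members that passed, for those apart between strains by at least 1 on the log2 scale, for the most abundant of each role and for the Smad and Id genes, and other pathway genes were named where they passed or were the most abundant of a list with no call. For the list of other target genes that gene is not reported here. Id4 and the remaining members were also given values, after these were seen. Alternatives used DESeq2 size factors, library totals, no filter, at least 5 CPM in 2 libraries, DESeq2 1.42.0, limma-voom (limma 3.58.1), a replicate block, the legacy edgeR test (chosen after seeing the data) and each library left out.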

Additional observations from a re-analysis of the deposited data

How the results depend on the processing

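The 5 member calls all held with DESeq2 size factors, library totals, no filter, the stricter filter, the legacy edgeR test, the replicate block and DESeq2, and 4 of 5 held in limma-voom. DESeq2 called 7 members higher and 4 lower, 15 and 5 other pathway genes, and 1542 and 913 of all genes. Over all genes, higher and lower calls were 746 and 306 with library totals, 165 and 95 with no filter, 166 and 106 with the stricter filter, and 163 and 100 in limma-voom. Other pathway genes called higher were 9 with library totals and 2 in limma-voom. Those called lower were 1 with no filter, 1 with the stricter filter, 1 with the legacy test and 0 in limma-voom, where 8 had an unadjusted p under 0.05.

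Leaving out 1 library gave 0 to 7 members called higher and 0 to 0 lower, 0 to 13 other pathway genes higher and 0 to 0 lower, and 0 to 750 of all genes higher and 0 to 77 lower. These fits hold fewer samples, and at an unadjusted p under 0.05 they gave 4 to 7 members lower. Directions turned in some of them: log2 fold changes ran from -0.26 to 0.76 for Tgfb3, -0.20 to 1.5 for Tgfbr2, -0.26 to 1.33 for Tgfbr3, -0.23 to 0.05 for Bmpr1a, -0.52 to 0.02 for Bmpr2, -0.48 to 0.80 for Acvr1, -0.08 to 0.72 for Smad1, -0.04 to 0.50 for Smad2, -0.08 to 0.15 for Smad4, -0.13 to 0.01 for Smad5 and -0.36 to 0.93 for Grem1. The cause was not tested.

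The labels give same-numbered libraries only a shared number and do not say whether they were prepared together. The correlation of their deviations from the strain means across genes was -0.0141. A value over all genes cannot show whether a subset of genes shared an effect of preparation. Of the 25 fibroblast markers, 20 were higher in replicate 1 in B6 and 23 in 129. Whether the libraries are paired is not known. With the replicate number as a block, 4 members were higher and 3 lower, with Id2 (3.36, edgeR adjusted p = 0.050) and Inhbb (-2.69, edgeR adjusted p = 0.042) added to the 5 calls, 7 other pathway genes higher and 4 lower, and 623 of all genes higher and 221 lower. With 2 libraries a strain, SEs of up to 0.89 on the log2 scale (Id2) limited which member differences could pass.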
